A study of Mus musculus with 4 samples.

Results

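The transcripts of 10 ligand-regulated nuclear receptors were examined in tumor-associated macrophages (TAMs): the retinoic acid receptors Rara and Rarg, the retinoid X receptors (RXRs) Rxra and Rxrb, the peroxisome proliferator-activated receptors Pparg and Ppard, the liver X receptors (LXRs) Nr1h2 and Nr1h3, the vitamin D receptor Vdr and the glucocorticoid receptor Nr3c1. They were matched by symbol among the 16739 genes with a value in any library, and all 10 had counts in all 4 libraries. RNA was sequenced from CD45+ CD11b+ F4/80+ macrophages sorted by FACS from subcutaneous B16-F10 melanomas, a mouse melanoma line, 16 days after injection. The hosts were C57BL/6 mice, 6 to 8 weeks old at injection. There were 2 libraries from WT littermate controls and 2 from mice that carried Trim24 flox/flox with LysM-Cre, a recombinase driven from the lysozyme M locus in myeloid cells, and that are labelled Trim24-deficient (KO in the plots and below). LysM-Cre is active in neutrophils as well as macrophages, and cells of other lineages in these hosts keep Trim24. The labels do not say whether a library came from a single mouse or a pool, so the p-values below measure only the spread between these libraries.

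Nuclear receptors are transcription factors that bind small lipophilic ligands and regulate the genes at whose DNA elements they sit. Retinoic acid receptors, PPARs, LXRs and the vitamin D receptor bind DNA as heterodimers with an RXR, which is therefore the shared partner of these pathways, whereas the glucocorticoid receptor binds DNA without RXR. In macrophages LXRs sense oxysterols and drive cholesterol efflux, PPARγ (Pparg) responds to fatty acids and is induced by IL-4, and glucocorticoids restrain inflammatory genes. Trim24, also known as TIF1α, was identified as a cofactor that binds liganded nuclear receptors, and the comparison asks whether the receptors themselves are transcribed at other levels where Trim24 was targeted.

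Between the libraries labelled KO and WT, the LXRα gene Nr1h3 showed the largest difference of the 10 receptors, at 2.24-fold higher, and both RXR genes stood about equally lower, at 0.759-fold for Rxra and 0.756-fold for Rxrb. None of the 10 passed a fold change above 1.5 with an adjusted p below 0.05 in edgeR's quasi-likelihood test, against 0.372% of all tested genes (42 of 11302). At an unadjusted p under 0.05 stood 1 of the 10, Nr1h3, against 12.2% of all tested genes (744 higher and 635 lower). Those counts are also the background for the gene lists below. DESeq2 and limma called 0 of the 10. Both KO libraries lay above both WT libraries for Nr1h3, Nr1h2 and Rarg, 3 of 10, where 21.4% of tested genes did so, and below them for Rxra and Rxrb, 2 of 10, where 23% did so. These shares are near the background. The split depends on the scale: in TPM (length-corrected values described below, which are not TMM-scaled), Nr1h2 and Rarg overlapped and Nr3c1 and Ppard did not, so that 1 of 10 (Nr1h3) was above, where 11.1% of tested genes were, and 4 of 10 (Rxra, Rxrb, Nr3c1 and Ppard) were below, where 36.8% were. Overlap of the groups is given for CPM below unless TPM is named. With 2 libraries against 2 such a separation has an exact two-sided permutation p of 0.333, the smallest that the design allows. Leaving out KO replicate 2 called 1 of the 10, Nr1h3. The count over all genes was 25 without WT replicate 2, 66 without WT replicate 1, 405 without KO replicate 1 and 652 without KO replicate 2.

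The expected counts of the libraries summed to between 4476122 and 5172407, so that 3 counts correspond to 0.606 to 0.639 CPM (the share of a gene in the counts of its library, on the usual CPM scale, with libraries scaled by edgeR). Below, the values of a label are given in the order replicate 1, replicate 2, SE is the standard error of a log2 fold change (KO over WT), and each adjusted p comes from edgeR's quasi-likelihood fit across all tested genes. Such floors cover counting error only. Trim24 itself was low and did not part the groups, at 5.86 and 2.08 CPM in WT and at 3.41 and 0.411 CPM in KO (log2 fold change -1.06, with an SE of 0.82, edgeR adjusted p = 0.635). The values are per gene and do not part reads of the deleted exons from the others, so they do not check the deletion. Xist, the RNA of the inactive X chromosome, had 10.9 and 6.46 CPM in WT against 437 and 256 CPM in KO, and Ddx3y, a gene of the Y chromosome, had 73.7 and 102 CPM against 0.426 and 0.411 CPM. Sex and genotype label therefore split the libraries in the same way, although the study's methods describe the mice as matched for sex, and they cannot be told apart in any difference below. Genes of the sorted cell type were high in all libraries, with Adgre1, which encodes F4/80, at 1038 to 1304 CPM and Csf1r at 1316 to 1573 CPM.

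The regions just upstream of the receptor genes are shown first, since several receptor genes are themselves known to be regulated by nuclear receptors. Start sites of RefSeq (GRCm38.p6) were found for 9 of the 10 receptors, with 18 windows of 250 bases ending at the start, and no window was found for Nr3c1. The motif AGGTCA, the core hexamer that RXR and its partners bind, occurred on either strand in 4 of the 18 windows, against 14% of 32851 such windows of all genes, and GGGTCA occurred in 3, against 11.6%. Direct repeats of AGGTCA with exactly 1 base (DR1) or 4 bases (DR4) between the copies occurred in none of the 18 windows, and in 0.0335% and 0.0152% of all windows. The following windows belong to the receptor with the largest difference (Nr1h3), to an RXR and the PPAR with such motifs, and to Nr1d2, described below as the receptor outside the 10 with the smallest adjusted p. Capitals mark AGGTCA and GGGTCA on the strand shown or the other one, and each sequence runs 5′ to 3′ along its gene.
Nr1h3, first start, minus strand of chr2:91195117-91195366: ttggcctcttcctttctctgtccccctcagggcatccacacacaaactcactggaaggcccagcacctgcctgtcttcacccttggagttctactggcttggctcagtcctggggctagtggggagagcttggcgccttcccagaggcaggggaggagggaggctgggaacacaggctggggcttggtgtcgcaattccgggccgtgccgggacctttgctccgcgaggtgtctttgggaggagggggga
Rxra, second start, plus strand of chr2:27709042-27709291: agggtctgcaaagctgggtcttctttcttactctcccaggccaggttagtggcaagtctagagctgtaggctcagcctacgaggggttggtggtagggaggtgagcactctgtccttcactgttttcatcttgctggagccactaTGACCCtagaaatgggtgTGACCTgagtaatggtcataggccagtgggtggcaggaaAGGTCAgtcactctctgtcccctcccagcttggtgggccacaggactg
Pparg, second start, plus strand of chr6:115362099-115362348: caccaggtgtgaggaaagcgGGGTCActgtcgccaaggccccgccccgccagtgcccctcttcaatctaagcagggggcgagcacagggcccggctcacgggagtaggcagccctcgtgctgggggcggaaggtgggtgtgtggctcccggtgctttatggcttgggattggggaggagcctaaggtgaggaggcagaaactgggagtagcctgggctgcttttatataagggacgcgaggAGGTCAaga
Nr1d2, minus strand of chr14:18239107-18239356: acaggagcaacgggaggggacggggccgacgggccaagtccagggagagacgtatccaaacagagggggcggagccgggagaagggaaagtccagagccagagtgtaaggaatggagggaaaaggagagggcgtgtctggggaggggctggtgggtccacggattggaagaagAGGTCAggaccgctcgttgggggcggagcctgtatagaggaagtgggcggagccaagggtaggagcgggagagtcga
The Nr1h3 window held neither motif. Of the windows not shown, those of the first Rxra start and of Rxrb also held neither. Positions are those of the most upstream base of each match, on whichever strand the motif lies. The Rxra window held AGGTCA 87 and 48 bases before the start and GGGTCA 105 bases before it. The Pparg window held AGGTCA 9 bases and GGGTCA 230 bases before the start. In the Nr1d2 window AGGTCA began 77 bases before the start. A match of letters is not a bound site, and the RNA values below do not tell which start was used.

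Levels were compared between the receptors per transcript length, as TPM (the deposited FPKM divided by its library total and scaled to the same sum in every library). In WT TAMs, Nr1h2, which encodes LXRβ, was the most abundant receptor at 73.3 ± 7.94 TPM (SD, n = 2 here and for all values given in this form). Nr1h3 followed at 31.3 ± 7.09, Pparg at 29.7 ± 8.89 and Nr3c1 at 27.4 ± 0.222 TPM, and the ranges of neighbours within these 3 overlapped. Rara at 13.7 ± 1.07 and Rxrb at 13.7 ± 1.61 TPM overlapped as well, and lay apart from Rxra at 8.70 ± 1.22 and from Rarg at 5.33 ± 1.04 TPM, which also lay apart from each other. At the bottom, Ppard at 1.77 ± 0.595 and Vdr at 1.24 ± 0.325 TPM overlapped. In the libraries labelled KO the order was the same down to Rxrb, but Nr1h3, at 62.4 ± 27.0 TPM, now overlapped with Nr1h2 at 76.8 ± 0.348 TPM. Rarg at 6.72 ± 1.56 TPM then stood before Rxra at 5.82 ± 0.687 TPM, with overlapping ranges, and Vdr at 1.37 ± 0.329 TPM before Ppard at 1.05 ± 0.192 TPM, again overlapping.

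**Figure D1:**
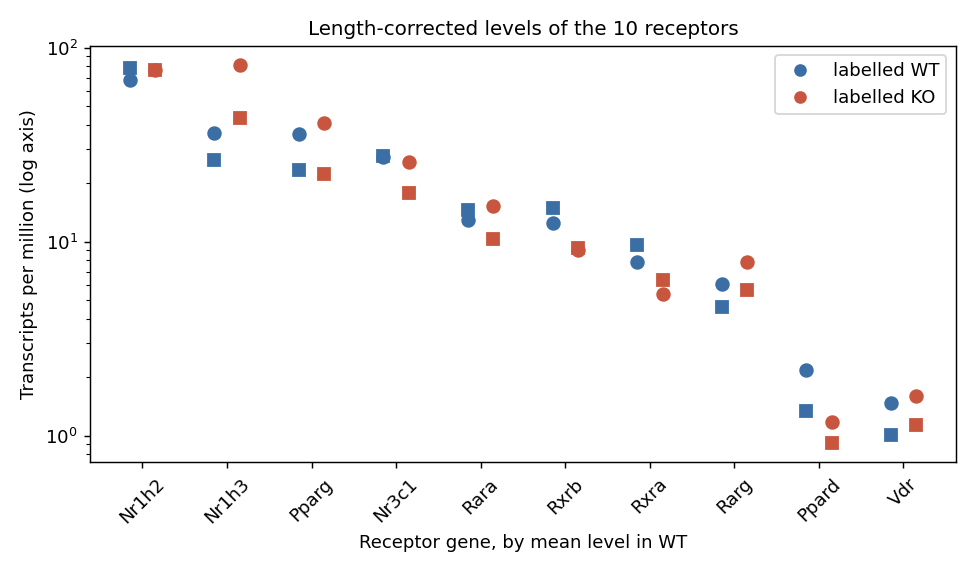
Length-corrected level of each receptor gene in TPM on a log axis, ordered by the WT mean, with 1 point per library (blue WT, red labelled KO, circle replicate 1, square replicate 2). Nr1h2 leads in WT at 67.7 and 78.9 TPM, Vdr and Ppard stay under 2.2 TPM in every library, and Nr1h3 reaches 81.5 TPM in KO replicate 1.

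RXRα (Rxra, Entrez 20181, chr2:27676445-27763319) and RXRβ (Rxrb, Entrez 20182, chr17:34031812-34038403) are the common heterodimer partners (positions of genes are those of RefSeq, GRCm38.p6). Rxra was at 22.8 and 25.6 CPM in WT and at 16.6 and 20.1 CPM in KO. Rxrb was at 16.8 and 18.1 CPM in WT and at 12.8 and 13.6 CPM in KO. For both genes the KO libraries were the lower pair and the groups did not overlap. The log2 fold change was -0.40 for Rxra (SE 0.24, 95% interval -0.94 to 0.15, edgeR adjusted p = 0.544). For Rxrb it was -0.40 (SE 0.27, 95% interval -1.005 to 0.20, edgeR adjusted p = 0.572). Both intervals include 0. The change of Rxra stayed below 0 in 14 of 14 alternative fits, between -0.55 and -0.26, and that of Rxrb between -0.55 and -0.35. Such fits reuse the same libraries and are not independent of each other. Fold changes were related to transcript length (Spearman's rho -0.249 between log2 fold change and log2 transcript length across 11302 genes, which are not independent), and Rxra, at a listed length of 5088 bases, is long. With the trend on length removed its log2 fold change was -0.26, while that of the shorter Rxrb was -0.43.

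The remaining RXR gene, Rxrg, which is not among the 10, was at 4.04 and 3.33 CPM in WT and at 3.62 and 2.67 CPM in KO. Its groups overlapped in CPM, while in TPM both KO libraries were below both WT libraries. In bulk RNA fewer cells of a type and less RNA per cell cannot be told apart, here or for any gene below. The 3 RXR genes together were at 23.7 and 27.3 TPM in WT replicates 1 and 2 and at 17.1 and 17.7 TPM in KO replicates 1 and 2. Their heterodimer partners among the 10 (Rara, Rarg, Pparg, Ppard, Nr1h2, Nr1h3 and Vdr) summed to 163 and 150 TPM in WT and to 225 and 160 TPM in KO. The ratio of the 7 partners to the 3 RXRs was thus 6.87 and 5.50 in WT and 13.2 and 9.07 in KO. In TPM, where 36.8% of tested genes had both KO libraries below both WT libraries, the KO libraries had the 2 lowest RXR sums and the 2 highest ratios (exact two-sided permutation p = 0.333 for each, the smallest possible). The RXR ratio itself differed little, with Rxra over Rxrb at 0.626 and 0.646 in WT and at 0.593 and 0.678 in KO.

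**Figure D2:**
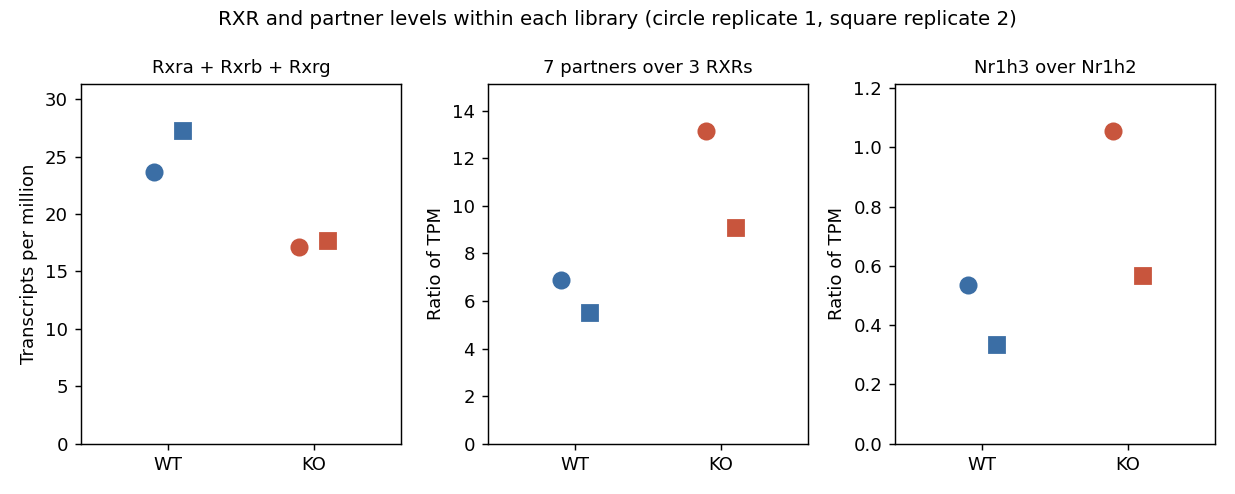
Sum of the 3 RXR genes in TPM (left), ratio of 7 partner receptors to that sum (middle) and ratio of Nr1h3 to Nr1h2 (right), 1 point per library (circle replicate 1, square replicate 2, axes from 0). RXR sums are 23.7 and 27.3 TPM in WT against 17.1 and 17.7 TPM in KO, and both ratios are higher in both KO libraries than in either WT library.

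LXRα (Nr1h3, Entrez 22259, chr2:91184061-91202829) is the LXR restricted to macrophages and metabolic tissues, and LXRβ (Nr1h2, Entrez 22260, chr7:44549616-44553968) is expressed widely. Nr1h3 was at 37.0 and 24.6 CPM in WT and at 89.7 and 48.5 CPM in KO. Both KO libraries were above both WT libraries, but the KO libraries also differed widely from each other. The log2 fold change of Nr1h3 was 1.16 (SE 0.31, 95% interval 0.46 to 1.87, edgeR adjusted p = 0.194). It ranged from 0.66 without KO replicate 1 to 1.54 without KO replicate 2, and in the latter fit, where the lone KO library is taken to vary like the WT libraries, it passed (edgeR adjusted p = 3.56e-05). Over 14 alternative fits its adjusted p ran from 3.56e-05 to 0.999. Nr1h2 was at 77.3 and 82.9 CPM in WT and at 93.9 and 95.8 CPM in KO, a log2 fold change of 0.24 (with an SE of 0.18, 95% interval -0.16 to 0.64, edgeR adjusted p = 0.615). Nr1h2 separated the groups in CPM but not in TPM, where WT was at 67.7 and 78.9 and KO at 77.05 and 76.6, and its log2 fold change was 0.09 when libraries were scaled by their totals alone, a scaling that put the median of all genes at -0.15.

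Within a library, the ratio of Nr1h3 to Nr1h2 in TPM was 0.536 and 0.333 in WT and 1.06 and 0.566 in KO. Only in KO replicate 1 did the LXRα transcript exceed that of LXRβ. The length that RSEM listed for Nr1h3, an average over its transcripts weighted by their estimated shares, was 1802 bases in both WT libraries and 1826 and 1808 bases in the KO libraries. Markers of monocytes differed in the same direction. Ly6c2 was at 190 and 176 CPM in WT against 616 and 295 CPM in KO, Ccr2 at 170 and 332 CPM against 429 and 408 CPM, and Plac8 at 130 and 98.3 CPM against 483 and 259 CPM, each higher in both KO libraries than in either WT library, and the 4 listed markers summed to 507 and 628 CPM in WT against 1635 and 1023 CPM in KO. Neutrophil markers (7 genes, all with counts) summed to 184 and 222 CPM against 287 and 448 CPM. Macrophage markers (10 genes, none at 0) summed to 20075 and 16687 CPM in WT against 23030 and 22276 CPM in KO. Summed markers overlapped between labels for dendritic cells, T and NK cells, B cells (1.03 to 3.13 CPM) and melanoma cells (585 to 789 CPM). Those of dendritic cells were at 48.1 and 44.2 CPM in WT against 78.4 and 36.4 CPM in KO. Those of T and NK cells were at 132 and 67.3 CPM against 290 and 72.1 CPM, with Trac at 0 in all libraries. For both, KO replicate 1 was the highest library. Markers of fibroblasts and endothelial cells were at 18.6 and 12.3 CPM in WT against 39.4 and 26.3 CPM in KO. Of the 6 fibroblast and endothelial markers only Pecam1 was tested, at 15.95 and 5.63 CPM in WT and at 36.0 and 22.0 CPM in KO. Col1a1, Col1a2, Dcn, Pdgfra and Cdh5 each overlapped between labels and had at most 2.92 CPM in a library. The part of other cells in the Nr1h3 difference was not tested.

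LXR targets, a list that holds Nr1h3 itself, lay on both sides of 0. Of 14 listed, 11 were tested and 0 passed (edgeR; 2 were higher at an unadjusted p under 0.05, Nr1h3 itself and Smpdl3a; DESeq2 and limma called 0). Their median log2 fold change was -0.04, beside -0.01 for all tested genes. Smpdl3a, a phosphodiesterase induced by LXR, was at 96.1 and 77.1 CPM in WT and 162 and 133 CPM in KO, with a log2 fold change of 0.77 (with an SE of 0.20, edgeR adjusted p = 0.187). It passed only without KO replicate 2 (0.90, edgeR adjusted p = 0.00482) and in the fit described in the closing section. Abca1, the exporter of cholesterol to apolipoproteins and a classical LXR target, was lower in KO, at 96.7 and 137 CPM in WT and 92.7 and 75.2 CPM in KO (log2 fold change -0.48, edgeR adjusted p = 0.421), and -0.17 with the length trend removed. Its partner in efflux, Abcg1, was at 214 and 195 CPM in WT and at 358 and 201 CPM in KO, where KO replicate 1 alone was high (log2 fold change 0.45, edgeR adjusted p = 0.532, and 0.81 with adjusted p = 0.0213 without KO replicate 2). Apoe, the most abundant of the list, spanned 3052 to 7758 CPM within the KO libraries alone, and its groups overlapped. Srebf1, which drives fatty acid synthesis, was nearly level at 57.3 to 62.7 CPM in all libraries.

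PPARγ (Pparg, Entrez 19016, chr6:115360879-115490404) is the PPAR of alternatively activated macrophages, and PPARδ (Ppard, Entrez 19015, chr17:28232754-28301469) is its broadly expressed relative. Pparg was at 38.0 and 22.9 CPM in WT and at 47.3 and 26.5 CPM in KO. The groups overlapped, since the libraries within each label differed from each other more than the means did, and the log2 fold change was 0.28 (SE 0.32, 95% interval -0.45 to 0.996, edgeR adjusted p = 0.778). The ratio of Pparg to Ppard in TPM was 16.4 and 17.4 in WT and 34.5 and 24.6 in KO. The log2 fold change of Pparg turned to -0.20 without KO replicate 1 and to -0.04 without WT replicate 2. The weighted transcript length of Pparg was 1867 and 1884 bases in WT and 1923 and 1912 bases in KO. Of the 10, only Nr1h3 and Pparg had a longer listed length in both KO libraries. The listed lengths of Rara, Rarg and Nr1h2 overlapped between labels, and those of Rxra, Ppard, Vdr and Nr3c1 were equal in all libraries. Rxrb was listed at 2356 bases in WT replicate 1 and at 2344 bases elsewhere. The share of all genes with such an order was not computed. Ppard rested on expected counts of 20 and 11 in WT and 11 and 9 in KO, or 4.04 and 2.29 CPM against 2.34 and 1.85 CPM. Its groups overlapped in CPM but not in TPM, where KO was the lower pair, and at this depth the 95% interval of its log2 fold change ran from -1.88 to 0.69.

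Of 14 PPAR targets, 12 were tested and 0 passed (edgeR; 0 at an unadjusted p under 0.05; DESeq2 and limma called 0), with a median log2 fold change of 0.07. Plin2, which coats lipid droplets, was at 659 and 670 CPM in WT and at 782 and 1005 CPM in KO (log2 fold change 0.43, with an SE of 0.22, edgeR adjusted p = 0.457), and the groups did not overlap. Cd36, the fatty acid scavenger receptor, was level in 3 libraries at 277 to 278 CPM and lower in KO replicate 2 at 207 CPM. Lpl, which both LXR and PPAR regulate and which releases fatty acids from lipoproteins, was at 430 and 602 CPM in WT and at 641 and 344 CPM in KO. Hadha, Cpt1a and Acadl, which serve fatty acid oxidation, had log2 fold changes between -0.10 and 0.08, with overlapping groups.

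The retinoic acid receptors RARα (Rara, Entrez 19401, chr11:98927800-98974942) and RARγ (Rarg, Entrez 19411, chr15:102234938-102257522) share their ligand. Rara was at 23.8 and 24.8 CPM in WT, between the KO libraries at 30.0 and 21.0 CPM. Rarg was at 9.49 and 6.67 CPM in WT and at 12.99 and 9.66 CPM in KO, where the lower KO library barely exceeded the higher WT library, and in TPM the groups overlapped. The log2 fold change was 0.07 for Rara (95% interval -0.49 to 0.62, edgeR adjusted p = 0.937) and 0.48 for Rarg (95% interval -0.30 to 1.27, edgeR adjusted p = 0.612). The ratio of Rara to Rarg in TPM was 2.14 and 3.15 in WT and 1.94 and 1.84 in KO. The log2 fold change of Rara changed sign with the scaling, to -0.08 with library totals. The RARβ gene Rarb, itself a retinoic acid target, had at most 5.68 expected counts in a library and was not tested.

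Only 3 of 8 retinoic acid targets were tested, and 0 passed (edgeR; 1 higher at an unadjusted p under 0.05, Tgm2; DESeq2 and limma called 0). Cyp26a1 and Cyp26b1, which degrade retinoic acid, had at most 1 expected count in any library. Tgm2, a transglutaminase also induced by IL-4, was at 400 and 177 CPM in WT and at 1063 and 319 CPM in KO, and KO replicate 2 was below WT replicate 1. Dhrs3, which returns retinaldehyde to retinol, was abundant at 353 and 466 CPM in WT and at 300 and 541 CPM in KO, with overlapping groups. The enzymes that make retinoic acid, Aldh1a1, Aldh1a2 and Aldh1a3, had at most 2 expected counts in a library.

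The vitamin D receptor (Vdr, Entrez 22337, chr15:97854427-97908296) was close to the lower end of what was tested, at 3.64 and 2.29 CPM in WT and at 4.26 and 3.08 CPM in KO. Its groups overlapped, and its log2 fold change of 0.30 (95% interval -0.86 to 1.47, edgeR adjusted p = 0.852) rests on 11 to 20 expected counts a library. Vdr was above 0 on the log2 scale in 12 of 12 alternatives that could test it, from 0.01 to 0.69. These fits reuse the same libraries, so their shared sign is not independent support. Of 4 vitamin D targets none was tested, and Cyp24a1, which inactivates vitamin D, was listed at 0 in all 4 libraries.

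The glucocorticoid receptor (Nr3c1, Entrez 14815, chromosome 18) was at 99.1 and 92.1 CPM in WT and at 99.5 and 71.3 CPM in KO. KO replicate 1 was at the WT level and KO replicate 2 was the lowest library, so the groups overlapped in CPM (log2 fold change -0.16, 95% interval -0.63 to 0.31, edgeR adjusted p = 0.798). In TPM both KO libraries, at 25.6 and 17.9, were below both WT libraries, at 27.2 and 27.6. Nr3c1 has the longest listed transcript of the 10, at 6345 bases, and with the length trend removed its log2 fold change was 0.01. Of 15 glucocorticoid targets 13 were tested and 0 passed (edgeR; 1 lower at an unadjusted p under 0.05, Zbtb16; DESeq2 and limma called 0), with a median log2 fold change of -0.32. Of these 13, 1 had both KO libraries above both WT libraries and 1 below, beside 21.4% and 23% of all tested genes. Tsc22d3, which encodes the leucine zipper GILZ, was at 143 and 84.8 CPM in WT and at 106 and 189 CPM in KO. Dusp1, the phosphatase that ends MAP kinase signals, was at 421 and 176 CPM in WT and at 153 and 247 CPM in KO, with overlapping groups. Like Dusp1, the targets Mt1, Sgk1 and Fkbp5 were highest in WT replicate 1, with WT replicate 2 between the KO libraries. Fkbp5 was at 39.2 and 14.8 CPM in WT and at 9.59 and 19.9 CPM in KO. Nfkbia, Anxa1 and Tsc22d3 were instead highest in KO replicate 2. The list median without WT replicate 1 is not given here.

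**Figure D3:**
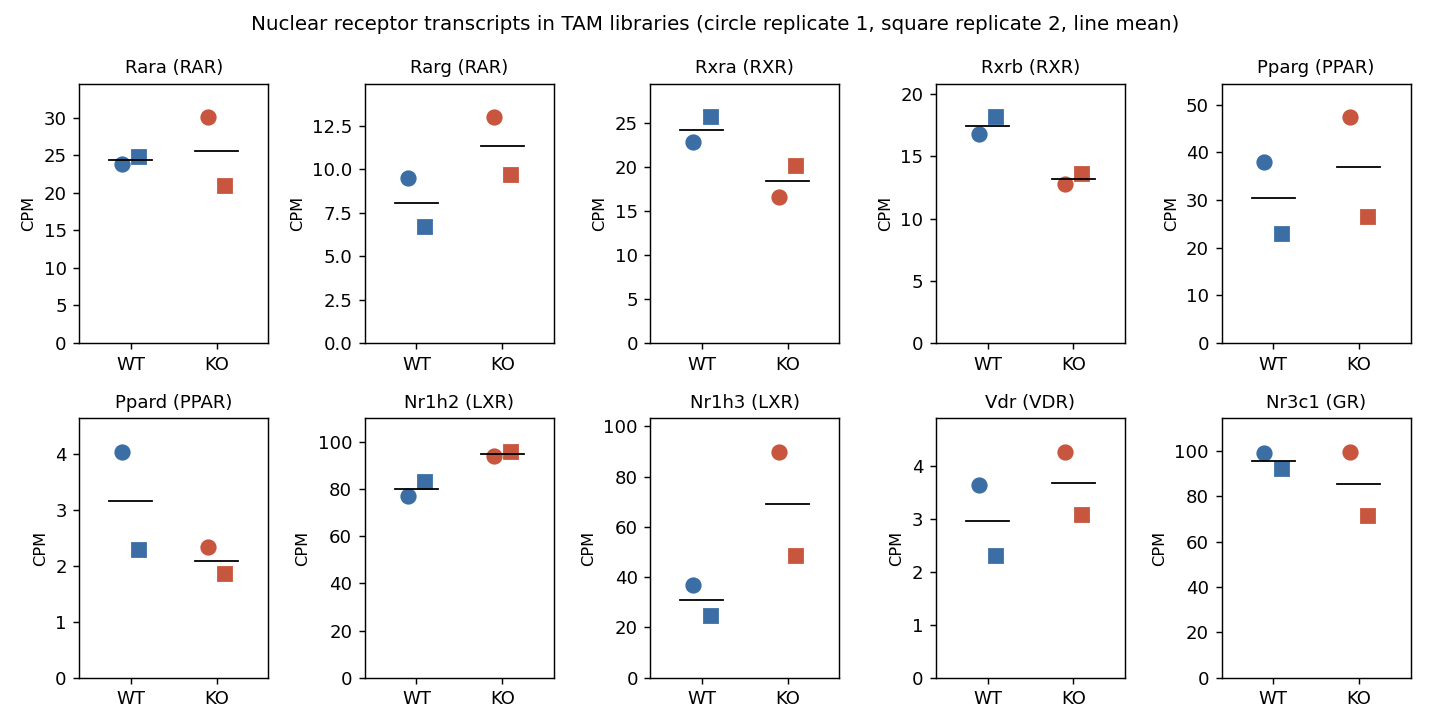
CPM of each of the 10 receptors, 1 point per library (blue WT, red labelled KO, circle replicate 1, square replicate 2) with the mean of each label as a line and every axis from 0. Rxra, Rxrb, Nr1h2, Nr1h3 and Rarg do not overlap between labels on this scale, and the other 5 do; in TPM Nr1h2 and Rarg overlap and Nr3c1 and Ppard do not.

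**Figure D4:**
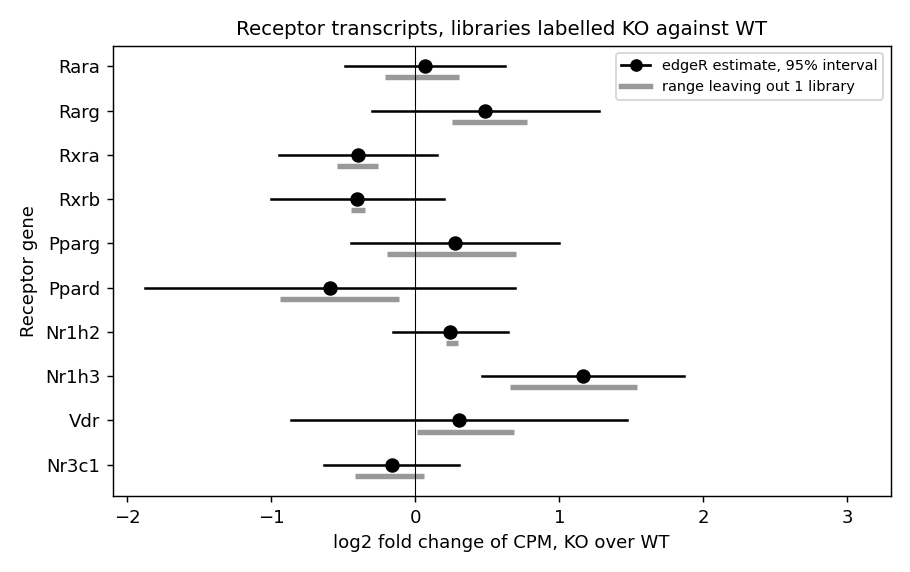
log2 fold change of each receptor, libraries labelled KO over WT, as the edgeR estimate with its 95% interval (black) and the range over the fits that leave out 1 library (grey). The interval of Nr1h3, 0.46 to 1.87, lies above 0 and the other 9 include 0, and none of the 10 passed after adjustment over all tested genes.

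By Euclidean distance between log2 CPM values centred on their mean over the 4 libraries, the genes with the pattern most like Rxra were Atg2a (0.0257), 2700049A03Rik (0.0338) and Ubald2 (0.0410). Those most like Nr1h3 were Arl5c (0.0982), Fgl2 (0.103) and Ass1 (0.113), and those most like Pparg were Sumf1 (0.0459), Gsr (0.0545) and Tenm4 (0.0717). Fgl2, for example, was at 616 and 374 CPM in WT and at 1405 and 749 CPM in KO. With 4 points and 11302 genes such closeness is a description only.

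Beyond the 10, the nuclear receptor family holds 39 further listed genes, of which 32 had a count and 15 were tested. None passed in edgeR, but DESeq2 called 1, Nr1d2. At an unadjusted p under 0.05 in edgeR 1 was higher and 4 were lower, beside 744 and 635 of all 11302 tested genes. Both KO libraries were above both WT libraries for 2 of the 15 and below them for 5, beside 21.4% and 23% of all tested genes. The median log2 fold change of the 15 was -0.23. The heme-binding repressors of the circadian clock, REV-ERBα (Nr1d1) and REV-ERBβ (Nr1d2), showed the largest differences of the family. Nr1d2 was at 19.8 and 19.2 CPM in WT and at 4.05 and 6.37 CPM in KO, a log2 fold change of -1.90 (with an SE of 0.33, edgeR adjusted p = 0.0616). It ranged from -2.26 to -1.40 over 14 alternatives, with adjusted p from 7.15e-06 to 0.411. Nr1d1 was at 10.3 and 7.71 CPM in WT and at 2.13 and 1.85 CPM in KO (log2 fold change -2.17, with an SE of 0.45, edgeR adjusted p = 0.102). For both genes every KO library was below every WT library.

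The thyroid hormone receptor gene Thra was likewise lower, at 12.3 and 11.04 CPM in WT and at 3.62 and 6.58 CPM in KO (log2 fold change -1.19, edgeR adjusted p = 0.263). Thra and Nr1d1 lie on opposite strands and share 263 exonic bases in GENCODE, and the protocol does not state whether strand was kept, so their reads may not be told apart. Rora, which acts on the same elements as the REV-ERBs, was at 8.48 and 10.8 CPM in WT and at 5.96 and 3.70 CPM in KO (log2 fold change -0.997, edgeR adjusted p = 0.361). In contrast Nr4a1, an immediate early receptor of myeloid cells, was at 12.3 and 10.8 CPM in WT and at 18.1 and 18.1 CPM in KO (log2 fold change 0.64, edgeR adjusted p = 0.390). Esr1, Esr2 and Esrra, the estrogen and estrogen-related receptors tested, overlapped between labels. None of the 10 receptors shares exonic bases with another gene in that annotation.

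Cofactors were described from lists of 13 coactivators and 11 corepressors. Of 12 coactivators and 11 corepressors tested, 0 passed (edgeR; 1 coactivator and 3 corepressors lower at an unadjusted p under 0.05; DESeq2 and limma called 0). The corepressor list holds Trim24 itself, the targeted gene, which had the lowest log2 fold change of the list (-1.06) with overlapping groups. With Trim24 included, the corepressors had a median log2 fold change of -0.51, and of -0.35 with the length trend removed. Of these 11, 5 had both KO libraries below both WT libraries, beside 23% of all tested genes (8 of 11 in TPM, beside 36.8%). Ncor1, a scaffold that holds unliganded receptors in repression, was among them and was at 69.3 and 101 CPM in WT and at 53.0 and 60.6 CPM in KO (log2 fold change -0.58, edgeR adjusted p = 0.342). Hdac3, the deacetylase of the same complex, was at 80.6 and 77.5 CPM in WT and at 70.5 and 80.5 CPM in KO, with overlapping groups. The Trim24 relative Trim28 was at 74.9 and 79.8 CPM in WT and at 52.8 and 55.5 CPM in KO (log2 fold change -0.51, edgeR adjusted p = 0.302).

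Among coactivators the median log2 fold change was -0.15. Crebbp, the acetyltransferase CBP, was at 40.2 and 59.0 CPM in WT and at 33.4 and 30.4 CPM in KO (log2 fold change -0.63, edgeR adjusted p = 0.322), and -0.33 was its smallest size over the alternatives. Its relative Ep300 overlapped between labels, at 37.6 and 42.9 CPM in WT and at 51.1 and 22.2 CPM in KO. Ncoa3, a p160 coactivator, overlapped too, at 140 and 210 CPM against 152 and 165 CPM, while Med1, the Mediator subunit that contacts receptors, was at 38.8 and 51.0 CPM in WT and at 51.3 and 52.8 CPM in KO. Of 20 genes that make, degrade or carry receptor ligands, 9 were tested and 0 passed (edgeR; 0 at an unadjusted p under 0.05; DESeq2 and limma called 0), with a median of 0.04. Ch25h, which makes 25-hydroxycholesterol, was at 110 and 120 CPM in WT and at 139 and 81.4 CPM in KO. Fabp5, a carrier of fatty acids and retinoic acid, was at 280 and 193 CPM in WT and at 358 and 257 CPM in KO.

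**Figure D5:**
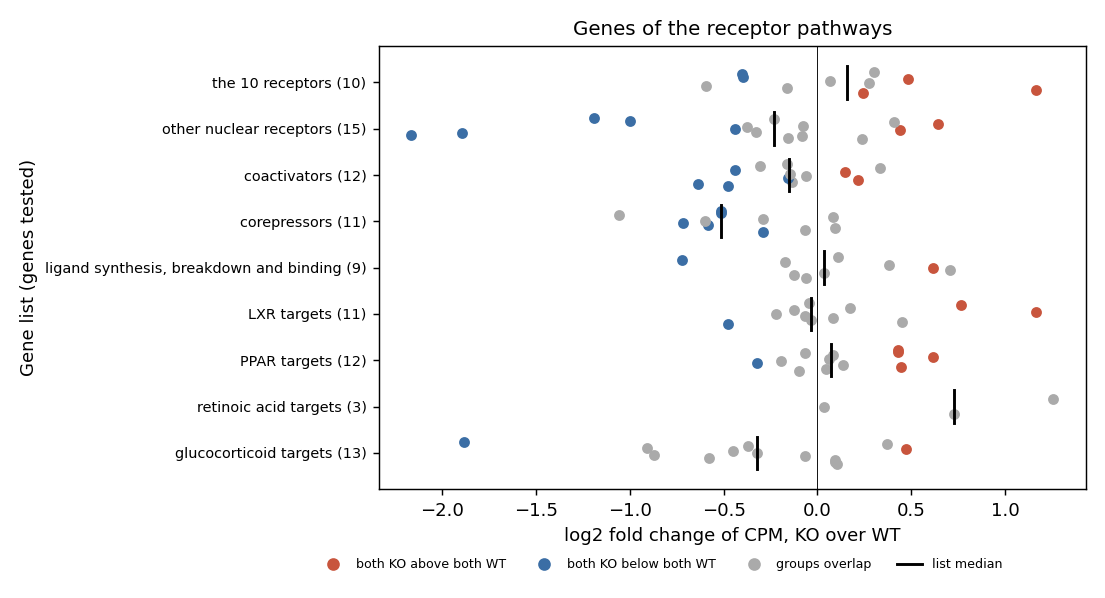
log2 fold change (libraries labelled KO over WT) of every tested gene of each list, colored by whether both KO libraries lie above (red) or below (blue) both WT libraries or overlap with them (grey), with the list median as a black line. Medians run from -0.51 for corepressors, a list that holds Trim24 itself, to 0.73 for the 3 retinoic acid targets, and no gene shown passed the test.

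Over the pathway lists together, without the 10 receptors, 82 of 130 genes were tested and 0 passed in edgeR, while DESeq2 called 1 and limma 0. At an unadjusted p under 0.05 in edgeR 3 of the 82 were higher and 9 lower. Of all 11302 tested genes 744 were higher and 635 lower, or 12.2% together. Both KO libraries were above both WT libraries for 10 of the 82 and below them for 18, beside 21.4% and 23% of all tested genes. In TPM it was 6 above and 33 below, beside 11.1% and 36.8%. Of the genes described above as overlapping, Esrra, Hdac3, Cd36, Acadl, Hadha and Srebf1 had both KO libraries below both WT libraries in TPM, and Med1, which did not overlap in CPM, overlapped. Without KO replicate 1 the count of calls was 3, among them Nr1d1 and Nr1d2, and without KO replicate 2 it was 8 (Nr1d1, Nr1d2, Thra, Abcg1, Smpdl3a, Tgm2, Fkbp5 and Cd163).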

How the data were processed

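Sorted TAMs gave 2 WT libraries and 2 labelled Trim24-deficient. Bowtie alignments to GRCm38 (mm10), quantified with RSEM, are the submitters' stated processing; the authors deposited for each library an expected count per gene (not normalized, about 77% whole), an FPKM value and a weighted transcript length. Versions are not given in the sources used here. Genes absent from a table were taken as 0. Symbols were matched for 16698 of 16739 identifiers.

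Expected counts were rounded. Low genes were removed by filterByExpr, leaving 11302, and the remaining counts of all 4 libraries were scaled by TMM and fitted in edgeR 4.0.16 (R 4.3.3; glmQLFit, glmQLFTest) with the label as the only term, with Benjamini-Hochberg adjustment over all tested genes. Calls needed a fold change above 1.5 and an adjusted p below 0.05, the thresholds of the study's methods. Standard errors are the log2 fold change over the square root of F, and 95% intervals use the total degrees of freedom of the fit. Alternatives were a block on the replicate number, DESeq2 1.42.0, limma 3.58.1 on log2 FPKM with a pseudocount of 1 or 0.1 (FPKM of at least 1 in 2 libraries), other scalings and filters, a length correction, and fits without each library. The scripts were tested on simulated data.

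The receptors and lists were chosen with earlier results of these data known. Named are the 10 receptors, the called and then the most abundant genes of each list up to 6, any other tested nuclear receptor, and the 3 nearest patterns of Rxra, Nr1h3 and Pparg. Outside this rule, genes with a call under an alternative or a defining role in their pathway (Abca1, Srebf1, Rarb, Zbtb16, Cyp26a1, Cyp26b1, Aldh1a1 to Aldh1a3, Cyp24a1, Fkbp5, Cd163 and the clock genes) were named after their values were seen. Protein sequences were not analysed here, and some listed genes are not reported here by name.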

Additional observations from a re-analysis of the deposited data

How the results depend on the processing

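The samples of both labels carry the numbers 1 and 2. Whether equal numbers mark littermates is not stated, and deviations from the group means correlated at 0.165 across genes between libraries of the same number, which with 2 per label is no test of pairing. With the replicate number as a block, 634 genes were called, 1 of the 10 receptors (Nr1h3, log2 fold change 1.14, adjusted p = 4.61e-05 from edgeR) and 5 other listed genes (among them Nr1d1, Nr1d2, Smpdl3a and Tgm2). DESeq2 called 156 genes and 1 other listed gene (Nr1d2), which the fit without a filter on low counts called as well, also 1. Leaving out a library gave 25 to 652 called genes, 0 to 1 of the 10 receptors and 0 to 8 other listed genes. limma on log2(FPKM + 1) called 23 genes, of which 14 (60.9%) were higher, and on log2(FPKM + 0.1) 20 genes, of which 11 (55.0%) were higher, against 33 of 42 (78.6%) in edgeR. With at least 10 counts in every library 31 of 35 (88.6%) were higher. That filter removes 4 listed Y-linked genes by their counts, which were at most 3 in a KO library. These 4 were among the 9 genes called lower of the 42 in edgeR, and Xist was among those called higher. Without a filter on FPKM limma called 0 genes. The median log2 fold change of all genes was -0.006 in edgeR with TMM, -0.154 with library totals and -0.133 to -0.152 in limma on FPKM. In TPM, an alternative chosen after seeing the data, 1 in place of 3 of the 10 receptors had both KO libraries above both WT libraries and 4 in place of 2 had them below.

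Of 135 fold changes of the 10 receptors under 14 alternatives, 9 reversed. Rara was at -0.0795 with library totals, at -0.0884 and -0.1014 in limma with a pseudocount of 1 and 0.1 and at -0.0884 without the filter on FPKM, and between -0.21 and 0.31 without each library. Pparg was between -0.20 and 0.70 without each library, Nr3c1 between -0.42 and 0.0584, and Nr3c1 was at 0.0074 with the length trend removed. The causes were not tested. The order of the 10 levels in WT was the same in 10 of 10 places from counts over the listed length. Ppard and Vdr fell below the FPKM filter of limma, and Ppard below 10 counts in a library. At these counts the intervals of Vdr and Ppard span more than a fold change of 1.5 in both directions.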

Other observations

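After the values of Nr1d1 and Nr1d2 were seen, 15 further clock genes were listed, of which 13 were tested, and no test was run on this list. Both KO libraries were above both WT libraries for 1 of them and below for 4, and the groups overlapped for 8, beside 21.4% above and 23% below among all tested genes. Bhlhe41, a repressor of the clock that macrophages express, was at 51.9 and 80.6 CPM in WT against 20.5 and 39.9 CPM in KO, a log2 fold change of -1.13. Its close relative Bhlhe40 was in the opposite order, at 60.0 and 37.5 CPM in WT and at 94.6 and 74.6 CPM in KO (log2 fold change 0.79). Arntl, which encodes BMAL1 and is repressed by REV-ERBs, overlapped between labels at 13.1 and 16.0 CPM in WT and at 10.7 and 20.8 CPM in KO. Dbp, an output of the clock, overlapped too, at 7.88 and 7.08 CPM against 5.96 and 8.43 CPM. Per3, Cry2 and Tef had log2 fold changes of -0.46, -0.43 and -0.29, each with both KO libraries below both WT libraries. Times of day of the sorts are not given in the labels.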
